A study of Mus musculus with 4 samples.

Results

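The 34 genes described here encode the signalling machinery of the pre-B cell receptor and the B cell receptor, from the receptor's signalling chains to kinases, adaptors, inhibitory receptors and phosphatases. They were taken by symbol from a list, and all 34 were found among the 23284 gene symbols measured by RNA-seq. The 4 libraries, each the sole one of its group, came from pre-B cells of the mouse strain C57BL/6J. The library labelled knockout came from STAP-2 knockout marrow and was set against wild-type marrow, both 1 month after transplantation. The transgenic library came from STAP-2 transgenic marrow and was set against wild-type marrow, both at steady state. STAP-2 is an adaptor protein encoded by Stap2, and the study asked how it shapes B cell production in stressed marrow. Neither the promoter of the transgene nor the number of animals behind a library is given in the sources used here, nor is the genotype of the transplant hosts. The sample titles carry one numeric code for both transplant libraries and another for both steady-state libraries, so transplantation and whatever that code marks cannot be told apart.

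A pre-B cell tests its newly made immunoglobulin heavy chain by displaying it with a surrogate light chain as the pre-B cell receptor. The heavy chain has almost no cytoplasmic tail, so the signal is carried by the CD79A and CD79B chains, whose tyrosines are phosphorylated by Src-family kinases and then bound by SYK. SYK acts through the adaptor BLNK on BTK and phospholipase C gamma, and lipid, calcium and Ras pathways follow. Inhibitory receptors bring phosphatases to the same place and dampen the signal.

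The opposing roles are written in short tyrosine motifs, so the coding stretches that carry them are shown for the signalling chains and the inhibitory receptors. All come from GENCODE M21 transcripts on GRCm38, written 5′ to 3′ on the coding strand, and capitals mark the codons of the motif's tyrosines. In CD79A and CD79B the immunoreceptor tyrosine-based activation motif has 2 tyrosines. It is encoded across exons 4 and 5 of Cd79a (codons 182 to 196 of 220, chr7:24901296-24901469, plus strand) and exons 5 and 6 of Cd79b (codons 255 to 269 of 288, chr11:106311867-106312012, minus strand).
Cd79a: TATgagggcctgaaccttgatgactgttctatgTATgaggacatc
Cd79b: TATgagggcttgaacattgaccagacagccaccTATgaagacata
Each inhibitory receptor carries the inhibition motif with 1 tyrosine. Shown are codons 841 to 846 of Cd22 (chr7:30866600-30866617, minus strand), codons 5 to 10 of Cd72 (chr4:43454498-43454515, minus strand), codons 317 to 322 of Fcgr2b (chr1:170961071-170961088, minus strand) and codons 657 to 662 of Siglecg (chr7:43417979-43417996, plus strand). The pattern occurs elsewhere in the coding sequences of Cd22, Cd72 and Siglecg as well, partly outside the cytoplasmic tail.
Cd22: atccatTACtcagagctg
Cd72: atcacgTATgcagacctg
Fcgr2b: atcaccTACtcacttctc
Siglecg: ctccacTATgctgctctc

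The libraries held an estimated 7280000 to 8700000 reads. Stap2 was near the detection limit in every library, at 0 to 0.536 FPKM (fragments per kilobase of transcript, scaled to library size), so its level checks neither genotype label, and the knockout is named by its label throughout. Of 11 defining pre-B markers, the members Cd79a and Cd79b among them, none was at 0 in any library. That does not check the identity of the cells, since no listed neutrophil or monocyte marker was at 0 either. Cd24a stood at 833 to 1115 FPKM. The surrogate light chain genes, singled out after their values were seen, were lowest in steady-state wild type. Vpreb1 was at 38.6 FPKM in the library labelled knockout, 30.2 in transplanted wild type, 34.4 in the transgenic library and 7.31 in steady-state wild type, and Igll1 at 49.7, 36.4, 39.9 and 14.6 FPKM in the same order. Immunoglobulin heavy chain genes were not analysed here. Markers of other cells were present too, with neutrophil genes summing to 655 to 1845 FPKM over 12 genes and monocyte genes to 57.3 to 139 FPKM over 10 genes. T and NK cell genes summed to 150 to 224 FPKM over 12 genes, with at most 1 at 0 in a library. Most of these 12 were low, with 3 to 5 at 1 FPKM or more in either library of a comparison and only 1 at 20 FPKM or more. In bulk samples fewer cells of a type and less RNA per cell cannot be told apart. With 1 library per group no difference below has a test or a replicate check. The 95% intervals given for ratios are exact Clopper-Pearson intervals on estimated reads and cover counting error only.

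All 34 genes were expressed at 5 FPKM or more in every library, and their mean levels over the 4 libraries ran from 6.89 FPKM for Sos1 to 1784 for Cd79a, with a median of 108. Of the 34, 13 ranked among the 500 highest of all genes by mean level. They lie on 18 chromosomes, 5 of them on chromosome 7. The estimated reads behind a member's value in a library ranged from 289 to 27276. For a typical gene of the group the highest library stood 1.2-fold above the lowest. Across all 4655 genes at a mean of 20 FPKM or more and above 0 in each library that median ratio was 1.19, so the group as a whole was about as even as other well-expressed genes.

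**Figure D1:**
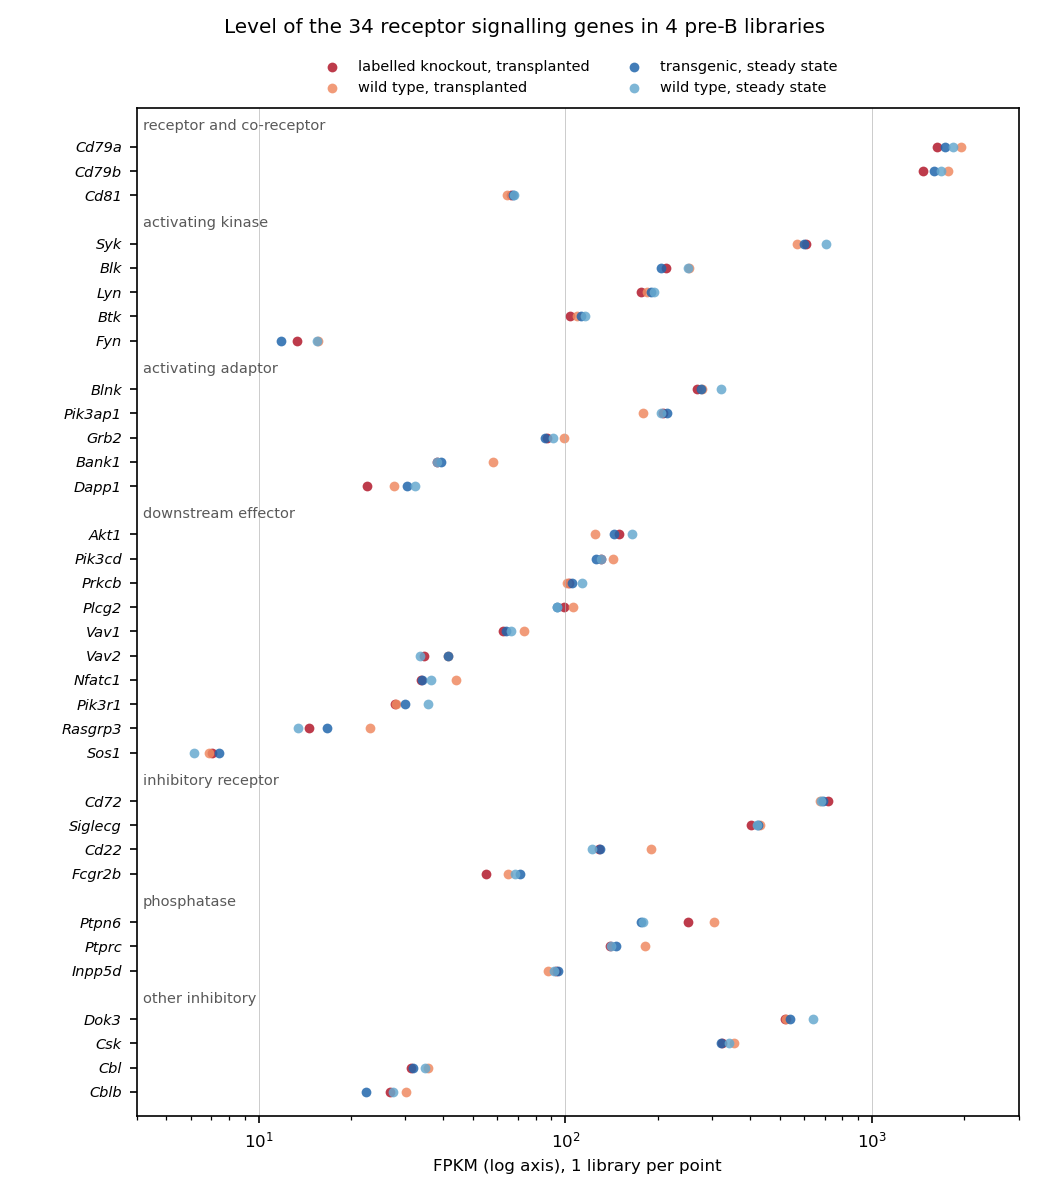
FPKM of each of the 34 genes on a log axis, 1 point per library, with genes grouped by role and ordered by mean level within a role. For most genes the 4 points nearly coincide, while transplanted wild type lies apart to the right for Bank1, Cd22 and Rasgrp3 and both transplant libraries do so for Ptpn6.

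Among the receptor chains, Cd79a was at 1624 FPKM in the library labelled knockout, 1952 in transplanted wild type, 1725 in the transgenic library and 1833 in steady-state wild type. Cd79b followed it closely, at 1466 FPKM in the library labelled knockout, 1764 in transplanted wild type, 1586 in the transgenic library and 1680 in steady-state wild type. The ratio of Cd79a to Cd79b was therefore 1.11 in both transplant libraries and 1.09 in both steady-state libraries, although both genes were highest in transplanted wild type and lowest in the library labelled knockout. Cd81, a tetraspanin of the B cell co-receptor complex, was among the steadiest members, between 64.7 and 68.1 FPKM.

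Of the activating kinases, Syk had by far the highest level. It stood at 608 FPKM in the library labelled knockout, 569 in transplanted wild type, 601 in the transgenic library and 708 in steady-state wild type, the last being the one high library. The Src-family kinases were ordered Blk, Lyn and Fyn in all 4 libraries, with Blk at 205 to 253 FPKM, Lyn at 176 to 195 and Fyn at 11.8 to 15.6. Blk and Fyn shared a pattern in which both wild types were high. Blk was at 212 FPKM in the library labelled knockout and 253 in transplanted wild type, and at 205 in the transgenic library and 252 in steady-state wild type. Btk, the Tec-family kinase that activates phospholipase C gamma, varied only between 104 and 116 FPKM.

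The adaptors differed more in how they varied. Blnk, which links SYK to its targets, was at 269 FPKM in the library labelled knockout, 279 in transplanted wild type, 276 in the transgenic library and 322 in steady-state wild type, again with 1 high library. Pik3ap1, the adaptor that recruits phosphoinositide 3-kinase, was lowest in transplanted wild type at 179 FPKM, against 205 to 214 in the other libraries. Bank1, a B cell scaffold that binds LYN, went the other way and was at 57.9 FPKM in transplanted wild type, against 38.2 in the library labelled knockout, 39.3 in the transgenic library and 38.2 in steady-state wild type. Dapp1, an adaptor that binds lipid products of phosphoinositide 3-kinase, was lowest in the library labelled knockout, at 22.6 FPKM against 27.7 in transplanted wild type. Grb2, the adaptor of the Ras exchange factor SOS, stayed between 85.7 and 99.1 FPKM.

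Downstream, the phosphoinositide 3-kinase catalytic subunit gene Pik3cd (126 to 143 FPKM), the phospholipase gene Plcg2 (93.8 to 106) and the protein kinase C gene Prkcb (101 to 113) were close to level. Rasgrp3, a Ras exchange factor switched on by diacylglycerol, was the most variable of the 10 effectors, at 14.6 FPKM in the library labelled knockout, 23.1 in transplanted wild type, 16.7 in the transgenic library and 13.4 in steady-state wild type. Sos1, the other Ras exchange factor, had the lowest level of all members, at 6.17 to 7.44 FPKM. Akt1 was at 150 FPKM in the library labelled knockout, 125 in transplanted wild type, 144 in the transgenic library and 165 in steady-state wild type, so that transplanted wild type was its low library. Nfatc1, a transcription factor activated by calcium, had transplanted wild type as its high one, at 44.1 FPKM against 33.7 to 36.5 elsewhere. The exchange factor genes Vav1 and Vav2 were at 62.8 to 73.6 and 33.7 to 41.5 FPKM, and Pik3r1, the regulatory subunit of phosphoinositide 3-kinase, at 27.8 to 35.7.

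Among the inhibitory receptors, the lectin-like Cd72 (676 to 720 FPKM) and the sialic acid receptor Siglecg (404 to 430) had the highest levels and hardly varied. Cd72 overlaps Tesk1 on the opposite strand, as Cd81 does R74862 and Sos1 does Arhgef33, and whether the authors' counting used strand is not stated. Cd22, the other sialic acid receptor, was at 128 FPKM in the library labelled knockout, 190 in transplanted wild type, 130 in the transgenic library and 122 in steady-state wild type. The ratio of Cd22 to Siglecg was 0.318 in the library labelled knockout and 0.442 in transplanted wild type, and 0.307 in the transgenic library and 0.289 in steady-state wild type. Fcgr2b, the inhibitory Fc receptor, was lowest in the library labelled knockout at 55.2 FPKM, against 64.8 in transplanted wild type, and its reads may be divided with those of the similar gene Fcgr3.

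Ptpn6, which encodes the tyrosine phosphatase recruited by these receptors, split the libraries by transplantation. It was at 251 FPKM in the library labelled knockout and 306 in transplanted wild type, against 177 in the transgenic library and 179 in steady-state wild type. The lipid phosphatase gene Inpp5d did not follow it, at 87.8 to 94.3 FPKM in all 4 libraries. Ptpn6 therefore stood at 2.69 times Inpp5d in the library labelled knockout and 3.49 times in transplanted wild type, but 1.88 times in the transgenic library and 1.95 times in steady-state wild type. Ptprc, the receptor phosphatase CD45 that keeps Src-family kinases active, was at 140 FPKM in the library labelled knockout, 182 in transplanted wild type, 146 in the transgenic library and 141 in steady-state wild type. Of the remaining negative regulators, Csk, the kinase that switches Src-family kinases off, was at 321 to 353 FPKM and the inhibitory adaptor gene Dok3 at 519 to 641, and the ubiquitin ligase genes Cbl and Cblb were at 31.4 to 35.6 and 22.5 to 30.2 FPKM.

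Loss of STAP-2 in recovering marrow is addressed by setting the library labelled knockout against transplanted wild type. Here 26 of the 34 genes were lower and 8 higher. On the log2(FPKM + 1) scale their median difference was -0.15. Of all 10790 genes with 1 FPKM or more in at least one of these libraries 56% were lower, at a median of -0.03. Past 1.5-fold on that scale were 2 genes, Bank1 and Rasgrp3, both lower, where 4.39% of all genes were lower by as much and 8.16% passed in either direction. Those 5.88% of the members are near the background. No member passed 2-fold, which 1.84% of all genes did. Rasgrp3 had a ratio of 0.629 (0.565 to 0.702), Bank1 of 0.659 (0.606 to 0.714) and Cd22, which fell just short, of 0.676 (0.649 to 0.704). Nfatc1 (ratio 0.764) and Ptprc (0.768) complete the 5 genes for which transplanted wild type was higher by 25% or more, as it was for 12.4% of all genes. Both receptor chains were lower to the same extent, with ratios of 0.832 (0.815 to 0.849) for Cd79a and 0.831 (0.811 to 0.851) for Cd79b.

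Against this direction, Akt1 had a ratio of 1.2 (1.14 to 1.27), Pik3ap1 of 1.16 (1.12 to 1.2), Syk and Cd72 each of 1.07 and Inpp5d of 1.06, all with intervals above 1. Counting intervals lay below a ratio of 1 for 22 members, above it for 5 and held it for 7. The same count was not made over all genes, so it does not set the members apart from other genes with many reads. The 10 activating kinases and adaptors had a median difference of -0.12 and the 7 inhibitory receptors and phosphatases one of -0.23. The inhibitory side counts Ptprc as a phosphatase, although CD45 also activates Src-family kinases. The difference between the medians of the sides, 0.10, was 0.034 without Ptprc and 0.048 without Lyn. When each library was scaled to the same sum, the median of all genes moved to 0.06, 19 members were lower and 15 higher, and no member passed 1.5-fold.

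**Figure D2:**
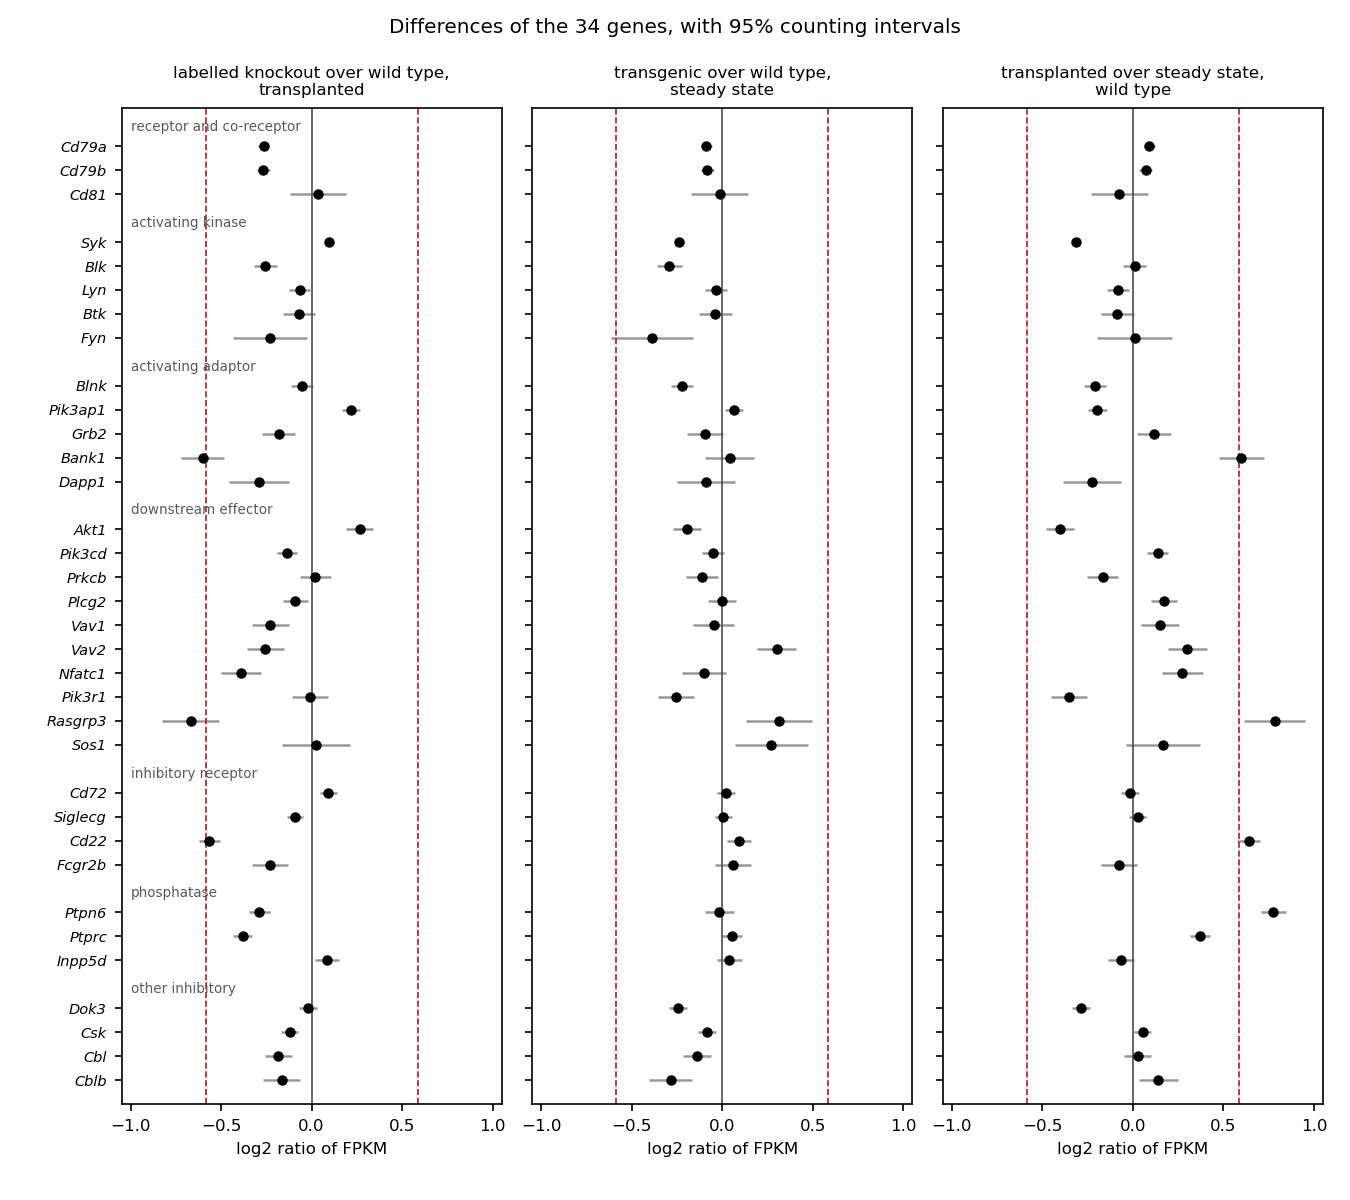
Log2 ratio of FPKM for each gene in the 3 comparisons, with grey bars for 95% counting intervals from 1 library a side and dashed lines at 1.5-fold. Most points lie well inside the lines, and Bank1, Rasgrp3, Cd22 and Ptpn6 are the genes at or past them.

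Added STAP-2 without transplantation is addressed by the steady-state pair. None of the 34 genes passed 1.5-fold in the transgenic library, which 6.12% of all 10843 genes did. Among genes at 20 FPKM or more, which include 31 members, 3.36% passed 1.5-fold. No member passed 2-fold either, which 1.9% of all genes did. The largest member differences were those of Fyn, with 11.8 FPKM in the transgenic library against 15.5 in wild type (ratio 0.764, 0.654 to 0.893), and of Rasgrp3, with 16.7 against 13.4 (1.24, 1.09 to 1.41). Fyn was the only member past 25% on the log2(FPKM + 1) scale, and for 8.69% of all genes the wild type was higher by as much. In total 23 members were lower and 11 higher at a median of -0.05, beside 53.3% of all genes lower at a median of -0.02. Counting intervals lay below a ratio of 1 for 13 members, above it for 5 and held it for 16, again with no such count over all genes. With equal sums 31 members were lower and 3 higher, while the median of all genes moved to -0.13. With scaling by the upper quartile 17 were lower and 17 higher, while the median of all genes was 0.03. The share of all genes lower is not given on these scales, so these counts do not set the members apart. The member median minus that of all genes was -0.037 with equal sums, -0.028 with the upper quartile and -0.030 as deposited.

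The 2 sides of the pathway lay apart by a small amount in this comparison. Of the activating kinases, Fyn, Blk at a ratio of 0.816 (0.779 to 0.856) and Syk at 0.849 (0.834 to 0.864) were lower in the transgenic library, and so was the adaptor gene Blnk at 0.857 (0.820 to 0.895). The intervals of Btk (0.974, 0.914 to 1.04) and Lyn (0.976, 0.936 to 1.02) held 1. Of the inhibitory receptors Cd22 was at 1.07 (1.02 to 1.12), and the intervals of Siglecg, Cd72 and Fcgr2b held 1. The activating side had a median of -0.09 and the inhibitory side one of 0.04. The directions depend on the scaling. With equal sums all 17 of these genes were lower, and the median of all genes was at -0.13. With the upper quartile 4 activating genes were higher and 6 lower. The difference between the medians of the sides was -0.13, and -0.073 when the sides were widened by the other regulators. Other inhibitors did not go with the inhibitory receptors, since Csk, Dok3, Cbl and Cblb were all lower, Dok3 at 0.844 (0.815 to 0.875) and Cblb at 0.821 (0.756 to 0.891). Vav2 (1.23, 1.14 to 1.33) and Sos1 (1.21) were higher, and Pik3r1 (0.838, 0.782 to 0.898) and Akt1 (0.874, 0.829 to 0.921) were lower.

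Summed levels weight the genes of highest level most. The activating side summed to 1739 FPKM and the inhibitory side to 1791 in the library labelled knockout, and to 1773 and 1936 in transplanted wild type. In the transgenic library the sums were 1767 and 1735 FPKM, and in steady-state wild type 1975 and 1707. Activating over inhibitory levels thus stood at 0.971 in the library labelled knockout and 0.916 in transplanted wild type, and at 1.02 in the transgenic library and 1.16 in steady-state wild type. Syk, at 708 FPKM in steady-state wild type against 569 to 608 in the other libraries, is the largest single contributor to the activating sum in each library.

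The knockout and transgenic comparisons share no library, so their directions can be set side by side. In both of them 19 members were lower, or 55.9%, where 33.7% of the 10164 genes measured at 1 FPKM in all 4 libraries were. Those 19 include Cd79a, Cd79b, Btk, Lyn, Blk, Fyn, Blnk, Ptpn6, Csk, Dok3, Cbl and Cblb. Higher in both were 4 members, Pik3ap1, Sos1, Cd72 and Inpp5d, or 11.8%, against 23.9% of all those genes. Higher in the transgenic library and lower in the library labelled knockout were 7 of the 34, Bank1, Rasgrp3, Vav2, Cd22, Fcgr2b, Siglecg and Ptprc. Of the 10164 genes, 2226 went that way. The reverse held for 4 members, Cd81, Syk, Prkcb and Akt1, and for 2086 of the 10164 genes. Many of these differences lie within counting error, and directions depend on the scaling, as the counts on equal sums above show.

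**Figure D3:**
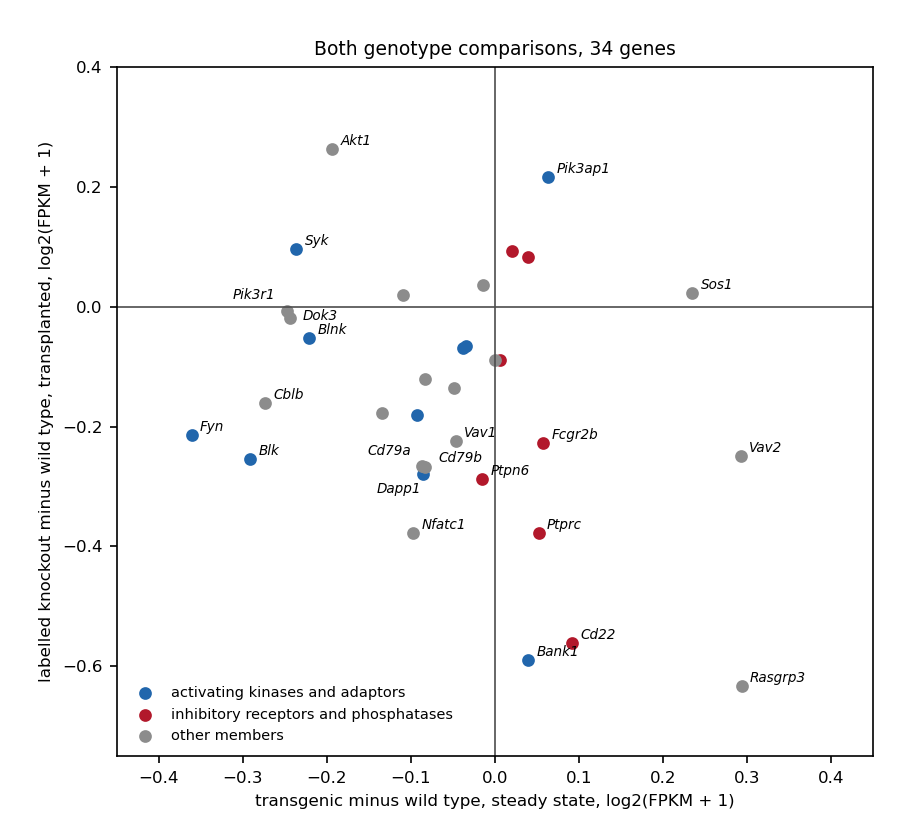
Difference in log2(FPKM + 1) of each gene in the transgenic comparison (horizontal) and in the comparison of the library labelled knockout (vertical), coloured by side of the pathway. Blue points of the activating kinases lie mostly left of 0, red points of the inhibitory side lie around or right of it, and Bank1, Cd22 and Rasgrp3 lie lowest.

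Transplanted against steady-state wild type shows what differs without a change of genotype, and it uses the wild-type library of each comparison above, so these values are not independent of them. Here 20 members were higher and 14 lower at a median of 0.03, beside 45.9% of all 10835 genes higher at a median of -0.02. With equal sums 13 were higher and 21 lower, while the median of all genes moved to -0.12. The member median minus that of all genes was 0.041 on that scale and 0.048 as deposited. Past 1.5-fold were 4 genes, all higher in transplanted wild type, or 11.8% of the members, where 5.2% of all genes were higher by as much and 7.48% passed in either direction. None passed 2-fold, which 2.3% of all genes did. The 4 were Rasgrp3 with a ratio of 1.72 (1.53 to 1.93), Ptpn6 with 1.71 (1.63 to 1.79), Cd22 with 1.56 (1.49 to 1.63) and Bank1 with 1.52 (1.39 to 1.65). On the scale of equal sums Rasgrp3 and Ptpn6 still passed. With Ptprc (ratio 1.3), the same 4 genes make up the 5 members higher by 25% or more, as were 12.2% of all genes. Akt1 (0.757, 0.718 to 0.799) and Pik3r1 (0.784, 0.732 to 0.840) were the 2 members for which steady-state wild type was higher by as much, as it was for 8.81% of all genes, and Syk was at 0.803 (0.789 to 0.817), Dok3 at 0.821 (0.792 to 0.85) and Blnk at 0.866 (0.830 to 0.903). Steady-state wild type, where Syk, Blnk, Akt1 and Dok3 were highest, also had the highest sums of erythroid and plasma cell markers. The 10 erythroid genes summed to 27.4 FPKM in the library labelled knockout, with 1 of them at 0, 21.5 in transplanted wild type, 19.1 in the transgenic library and 109 in steady-state wild type. The 7 plasma cell genes summed to 517 FPKM in the library labelled knockout, 525 in transplanted wild type, 723 in the transgenic library and 937 in steady-state wild type, with none at 0. Their part in these differences was not tested.

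Transplanted wild type held the highest level of 18 members, and the library labelled knockout held the lowest of 15. Among the 4691 genes at a mean of 20 FPKM or more the same libraries were highest and lowest in 24.3% and 31.3%. With equal sums transplanted wild type was highest for 11 members and lowest for 11. Steady-state wild type was highest for 18, and the transgenic library was lowest for 18 and the library labelled knockout for 2. Among the 4688 such genes on that scale, transplanted wild type was highest in 13.01% and lowest in 36.35%. Steady-state wild type was highest in 49.17%, the transgenic library lowest in 41% and the library labelled knockout lowest in 13.01%. With the upper quartile transplanted wild type was again highest for 18 members, beside 25.08% of 4689 genes. With libraries scaled to their median gene ratio it was highest for 18 as well, beside 24.29%. The library labelled knockout was lowest for 11 and 9 members on these scales. Among these scalings the count highest in transplanted wild type thus moved only with equal sums. The count lowest in the library labelled knockout differed on each scale. For Bank1, Cd22 and Rasgrp3 the level in the library labelled knockout was close to that of steady-state wild type, at 38.2 and 38.2, 128 and 122, and 14.6 and 13.4 FPKM, so that transplanted wild type was the high library for these 3 genes. Ptpn6 is the exception, since the library labelled knockout, at 251 FPKM, was well above both steady-state libraries.

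**Figure D4:**
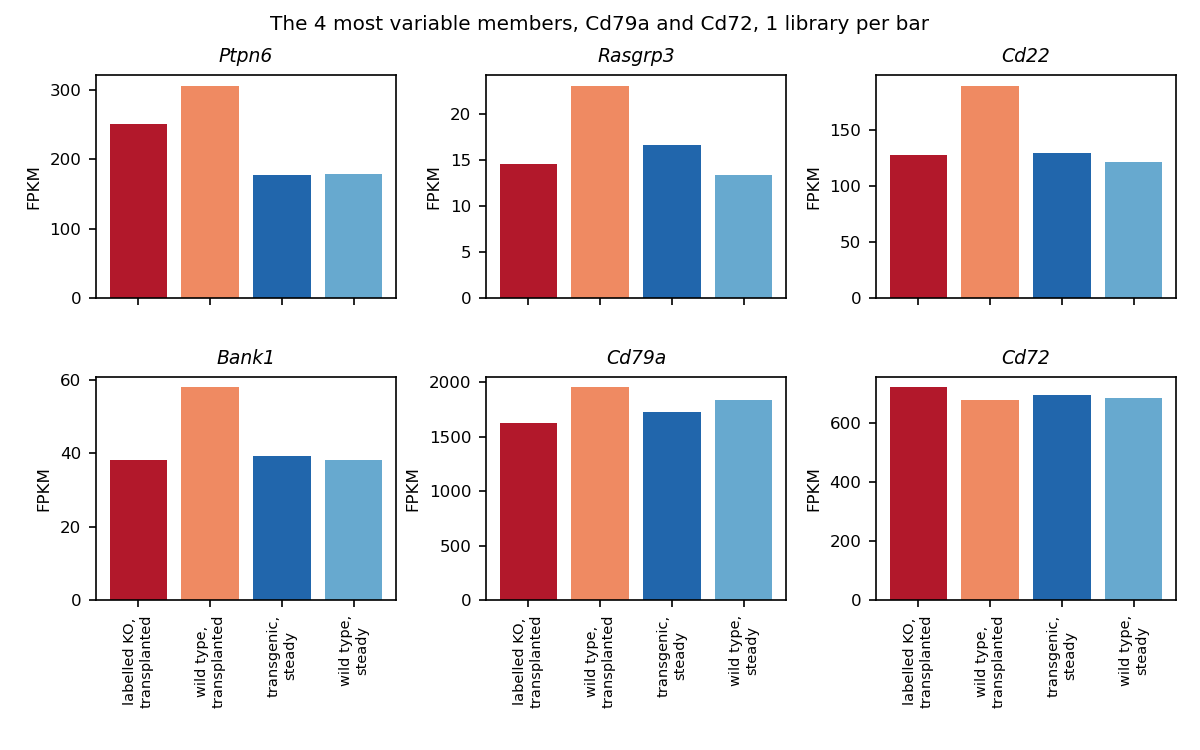
FPKM of the 4 members that passed 1.5-fold in any comparison (Ptpn6, Rasgrp3, Cd22 and Bank1) and of Cd79a and Cd72 beside them, 1 library per bar. Transplanted wild type has the tallest bar for the first 4, and only for Ptpn6 is the library labelled knockout well above both steady-state libraries.

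The summed level of maturing B cell markers, like Bank1, Cd22 and Rasgrp3, was highest in transplanted wild type. The 10 measured genes summed to 3199 FPKM in the library labelled knockout and 5147 in transplanted wild type, and to 4318 in the transgenic library and 3040 in steady-state wild type, and none was at 0. All 10 were lower in the library labelled knockout than in transplanted wild type, and all 10 higher in the transgenic library than in steady-state wild type. Cd74, the invariant chain of MHC class II, was at 1569 FPKM in the library labelled knockout and 2586 in transplanted wild type, and at 2107 in the transgenic library and 1411 in steady-state wild type. Neutrophil markers differed in the same direction in the transplant pair, at sums of 655 FPKM in the library labelled knockout and 1697 in transplanted wild type. They also differed in the steady-state pair, with sums of 1845 FPKM for the transgenic library and 771 for wild type. In that pair Rasgrp3 had a ratio of 1.24 (1.09 to 1.41) and Cd22 of 1.07 (1.02 to 1.12), in the direction of these markers, while the intervals of Ptpn6 (0.989, 0.937 to 1.04) and Bank1 (1.03, 0.935 to 1.13) held 1. Monocyte markers summed to 58.1 FPKM in the library labelled knockout and 139 in transplanted wild type, and to 90.8 in the transgenic library and 57.3 in steady-state wild type, with none at 0. The sum of mitosis genes was above that of its wild type in both pairs, at 1181 FPKM over 20 genes in the library labelled knockout and 593 in transplanted wild type, and at 962 in the transgenic library and 738 in steady-state wild type. Immediate early genes, 20 in number, summed to 1445 FPKM in the library labelled knockout and 2887 in transplanted wild type, and to 1774 in the transgenic library and 2714 in steady-state wild type. The part of cell mixture, cell cycle and stage in the differences of the 34 genes was not tested.

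Of 67 further genes of the pathway, 64 were at 1 FPKM or more in the compared libraries. In the library labelled knockout 7 were lower and 1 higher than in transplanted wild type by at least 1.5-fold, and the list had a median of -0.14. These are 12.5% of the 64, beside the 8.16% of all genes, and 2 passed with equal sums. In transplanted against steady-state wild type 10 were higher and 1 lower at a median of 0.02, or 17.2% of the 64 beside the 7.48% of all genes, and in the transgenic comparison none passed at a median of -0.00. Cr2, a complement receptor that is also one of the maturing markers, was at 7.0 FPKM in the library labelled knockout, 11.6 in transplanted wild type, 8.46 in the transgenic library and 6.16 in steady-state wild type. It thus had transplanted wild type as the high library, like Bank1, Cd22 and Rasgrp3.

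Others of the list were highest in transplanted wild type as well. The Ras exchange factor gene Rasgrp1 was at 48.0 FPKM in the library labelled knockout and 75.4 in transplanted wild type, and at 43.6 in the transgenic library and 52.9 in steady-state wild type. Sh3bp5, whose product binds and inhibits BTK, was at 35.7 FPKM in the library labelled knockout and 55.3 in transplanted wild type, and at 36.6 in the transgenic library and 38.1 in steady-state wild type. Lilrb3, an inhibitory receptor gene with close relatives among which reads may be divided, stood at 9.91 FPKM in the library labelled knockout and 16 in transplanted wild type, and at 7.59 in the transgenic library and 5.79 in steady-state wild type. For Lilrb3 the library labelled knockout was thus above both steady-state libraries, as for Ptpn6. The adaptor gene Lat2 (52.8 against 27.8 FPKM), Ptpn22 (8.44 against 5.03) and the ERK kinase gene Map2k1 (46.9 against 29.7) were higher in transplanted than in steady-state wild type.

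Bank1, Cd22 and Ptpn6 are among the 18 members that were highest in transplanted wild type. The 250 bases before their RefSeq transcription starts (GRCm38.p6) are shown, 5′ to 3′ on the strand of the gene. Each window shown holds at least 1 of the motifs searched, so the display does not link motif and peak. Motifs were searched on both strands, and capitals mark those found: CAGGTG, an E protein hexamer, and the palindrome bound by EBF1. The windows are chr3:136326067-136326316 for Bank1, chr7:30879029-30879278 for Cd22 and chr6:124738710-124738959 for Ptpn6, all on the minus strand.
Bank1: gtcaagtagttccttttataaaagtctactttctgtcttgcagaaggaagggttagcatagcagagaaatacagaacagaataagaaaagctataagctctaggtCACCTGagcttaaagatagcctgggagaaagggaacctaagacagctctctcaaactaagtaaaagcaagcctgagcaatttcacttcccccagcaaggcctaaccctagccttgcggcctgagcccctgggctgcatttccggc
Cd22: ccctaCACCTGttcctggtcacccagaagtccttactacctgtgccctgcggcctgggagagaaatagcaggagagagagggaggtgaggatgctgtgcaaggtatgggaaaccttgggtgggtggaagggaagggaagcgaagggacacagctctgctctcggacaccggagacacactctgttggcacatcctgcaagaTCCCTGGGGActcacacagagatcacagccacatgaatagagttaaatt
Ptpn6: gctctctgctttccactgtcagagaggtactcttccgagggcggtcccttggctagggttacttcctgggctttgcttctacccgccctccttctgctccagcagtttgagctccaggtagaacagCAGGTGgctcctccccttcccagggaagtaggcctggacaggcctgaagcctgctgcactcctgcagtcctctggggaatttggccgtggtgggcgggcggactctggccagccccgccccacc
The hexamer was present in 13 of 40 windows of the 30 members that have one, or 32.5%, against 17.2% of all 32851 windows. The EBF1 palindrome was in 1 member window, that of Cd22, against 0.779% of all windows. The octamer ATGCAAAT was in 2 member windows, those of Blnk and Prkcb, or 5%, against 1.6%, and the ETS sequence AGAGGAAG in 5, or 12.5%, against 3.67%. Both Rasgrp3 windows held none of these and are not shown, although Rasgrp3 was also highest in transplanted wild type. The hexamer was found in genes that differed between libraries and in genes that were level, such as Plcg2 and Csk.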

How the data were processed

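The labels' protocols give a Qiagen miRNeasy kit for total RNA and an Illumina TruSeq stranded mRNA kit for the libraries. The submitters' processing notes list TopHat2 (2.0.13), Bowtie2 (2.2.3), SAMtools (0.1.19), Cufflinks (2.2.1) and the build mm10, with no order, and name no annotation. The authors' deposited values were taken to be FPKM, although no header states a unit. From them the difference of log2(FPKM + 1), the group named first minus the other, was computed for genes at 1 FPKM in one of the libraries compared, which understates changes of low genes. Calls use 1.5-fold.

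Reads were estimated from single-transcript genes, whose low values lie on steps of 1 read for a transcript length minus 210 nt, with 66.4% to 70.9% within 0.1 of a whole read. They are approximate for genes with several transcripts. The members and lists were chosen with earlier results of these data known. All 34 members are named. Further pathway genes are named where past 1.5-fold at 5 FPKM or more, and of each marker list only genes of highest level, unless stated. Some genes that this rule names are not reported here. The calling step was run on simulated reads with counting error only and planted changes larger than any seen in a member. That run tests neither the differences reported here nor variation between animals. No protein sequences were used, and tyrosine motifs were searched by codon in GENCODE M21. Python 3.11.15, pandas 2.3.3, numpy 2.4.6, scipy 1.17.1 and matplotlib 3.10.9 were used. Other scalings, pseudocounts, filters and thresholds are given in the closing section.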

Additional observations from a re-analysis of the deposited data

How the results depend on the processing

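No paired analysis was possible because each group has 1 library, and no replicate could be left out. Of 117 alternative values for the counts, medians and gaps between sides, 90 stayed close to the reported ones. Close meant within a factor of 1.5 for counts and within the members' median counting error otherwise. Some of these values could not move, since all 34 members were at 5 FPKM or more and filters up to that level left them all in. The rule also counts as close the gap of 0.034 without Ptprc for the library labelled knockout, against 0.10 as reported. Scaling to equal sums moved the member medians from -0.15 to -0.046 for the library labelled knockout, from -0.05 to -0.17 for the transgenic library and from 0.03 to -0.077 for transplanted over steady-state wild type, and it left 0, 0 and 2 members past 1.5-fold. All genes split 542 higher and 340 lower, 310 and 403, and 447 and 389 on that scale, against 406 and 474, 413 and 251, and 563 and 247 as deposited. For the library labelled knockout the count of members was also 0 with a pseudocount of 5 FPKM, 1 with scaling by the median of gene ratios (Rasgrp3) and 1 with the upper quartile. Thresholds of 25% and 2-fold gave 5 and 0 members for it, 1 and 0 for the transgenic library and 7 and 0 for transplanted wild type. Counts of further pathway genes moved from 8 to 1 (pseudocount 5), 5 (at 5 FPKM), 3 (at 20 FPKM, a filter added after the data were seen), 2 (equal sums), 16 (25%) and 0 (2-fold) for the library labelled knockout. They moved from 0 to 2 (pseudocount 0.1) and 9 (25%) for the transgenic library, and from 11 to 4, 7, 4, 19 and 2 (pseudocount 5, 5 FPKM, 20 FPKM, 25% and 2-fold) for transplanted wild type. The gap between activating and inhibitory sides ranged from 0.03 to 0.16, -0.13 to -0.07 and -0.11 to -0.02 in the same order, and library scalings and the filters up to 5 FPKM cannot move it beyond the pseudocount, by their construction. Sides widened by the other regulators gave -0.016 in transplanted over steady-state wild type, against -0.11. The cause of these moves was not tested. Of 90 values for 6 single genes (Bank1, Cd22, Rasgrp3, Ptpn6, Cd79a and Syk), 15 moved beyond counting error, and no difference past 1.5-fold changed sign. Counting error alone leaves a ratio of 1 inside the interval of 7, 16 and 10 members in the same order, and variation between animals was not measured.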
